A study of Mus musculus with 8 samples.

Results

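The germinal center program is represented here by 9 genes, taken as a list of symbols: the transcription factor genes Bcl6, Mef2b, Mef2c and Mybl1, the transcriptional adaptor gene Lmo2, the signalling genes Gcsam and Rgs13, and Nuggc and Basp1. All 9 were found by symbol among 21887 mouse protein-coding genes, and all 9 passed the filter on low coverage. They were read in 5-hydroxymethylcytosine (5hmC) immunoprecipitation libraries (hMeDIP-seq) of splenic germinal center B cells from C57BL/6 animals that were knockout (KO) or wild type (WT) for TET2, with 2 libraries per genotype, numbered 2 and 3. The labels give no age, sex, immunization or Cre, nor the part of TET2 that was deleted, and they do not say whether libraries came from separate animals, so p-values measure only the spread between these libraries.

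TET2 oxidizes 5-methylcytosine to 5hmC, a base that is common in gene bodies and enhancers of active genes. Germinal centers are sites in lymphoid follicles where B cells that met antigen proliferate and diversify their antibodies. BCL6, a zinc finger repressor, is required for them: it holds back plasma cell genes, cell cycle arrest and the response to DNA damage. MEF2B and MEF2C are related MADS-box factors, and MEF2B is known as an activator of BCL6 in human germinal center cells.

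The measure was the number of bases covered by deposited 5hmC peaks in a gene's span plus 2 kb on each side, scaled to equal totals per library. This scaling takes out any difference between the genotypes in total peak coverage. Totals per library were 137.0 and 110.6 Mb in KO replicates 2 and 3, and 124.8 and 139.3 Mb in WT replicates 2 and 3. The lists held 280413, 279546, 270542 and 300950 peaks in the same order of libraries, and their read numbers are unknown here. Tet2 itself had 3001 and 2827 scaled bases in KO and 3272 and 2580 in WT, with a limma log2 change of 0.00 (standard error 0.15, adjusted p = 1). The authors' deposited table of regions enriched in WT lists 2 at Tet2. As many or more were seen in 12.2% of genes with a peak. A partial deletion would not show in coverage of the entire gene, so the genotype labels stay unchecked. Peaks are not expression either, so the cell type could not be checked from markers. B cell markers had union regions, which are peaks of the 4 lists merged where they touch, in 8 of 8 genes, T cell markers in 9 of 10 and myeloid markers in 7 of 8, with 1 T cell and 1 myeloid marker at 0 coverage. Positions are given in GRCm38, and distances from the first base of a gene are negative upstream.

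The 9 genes carried 124 union regions, and 58 of these had a peak in all 4 libraries (46.8%, against 58% of the union regions in all gene windows). A further 20 had a peak in 3 libraries, 22 in 2 and 24 in 1. Peak coverage was densest in Mef2b and Bcl6, where peaks covered on average 25.4% and 21.5% of the window. It was thinnest in Lmo2 and Mybl1, with 3.6% and 3.7%. Regions with a peak in both KO and no WT library numbered 2 of 124, where all gene windows gave 1.26%. The opposite pattern, WT in both replicates and KO in neither, was seen in 5 of 124, where all gene windows gave 2.24%.

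Coverage was also summed over each gene. In limma, 0 of the 9 passed at an adjusted p under 0.05, as did 0 of 13998 genes tested (0%); unadjusted, 591 genes (4.22%) and 1 member, Nuggc, had a p under 0.05. The log2 change, KO over WT, was negative for 6 members and positive for 3 (52.3% of all genes tested had a negative one). Its median was -0.15, beside -0.01 over all genes tested. Without scaling, the median over all genes tested was -0.10. Both KO libraries lay above both WT libraries for 2 members, Nuggc and Mybl1 (14% of all genes tested), and both lay below for 0 members (16.6% of all genes tested).

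**Figure D1:**
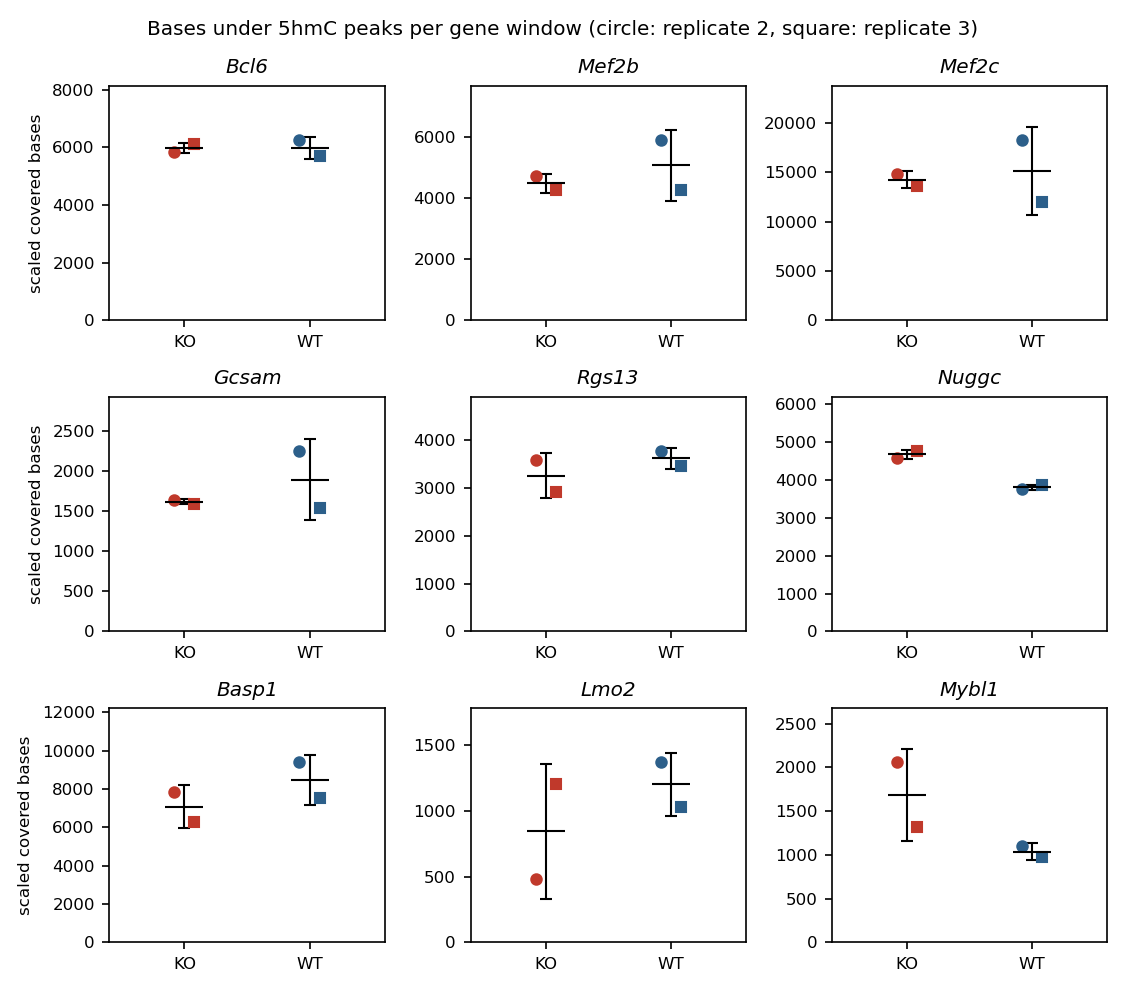
Scaled bases under 5hmC peaks (vertical axes, from 0) in the window of each of the 9 genes, for KO and WT; points are libraries, horizontal bars the mean and whiskers the SD of 2 libraries. KO and WT libraries overlap for 7 genes, and both KO libraries lie above both WT libraries for Nuggc and Mybl1.

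Genotype differences in these genes were listed in the authors' deposited tables of differential regions, 1 listing 24645 regions enriched in WT (WT-higher) and 1 listing 50 enriched in KO (KO-higher). The windows of the 9 genes held 18 WT-higher and 0 KO-higher regions of the authors' deposited tables. They fell in 4 of the 9 genes: 12 in Mef2c, 3 in Basp1, 2 in Rgs13 and 1 in Lmo2, while Bcl6, Mef2b, Gcsam, Nuggc and Mybl1 had none. Of all genes with a union region, 28.3% had at least 1 WT-higher and 0.104% at least 1 KO-higher region, so 4 of 9 genes is to be read against 28.3%. With only scores of 5 or more in the authors' deposited table, 6 of the 18 were left, 4 in Mef2c and 1 each in Rgs13 and Basp1.

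Most of these 18 regions also had KO peaks. Windows of 10 kb on each side in place of 2 kb raised the count to 25. Bcl6 then had 2 and Mef2b and Gcsam 1 each, while Nuggc and Mybl1 still had 0. The 17 union regions that hold 17 of the 18 are 13.7% of 124. All gene windows gave 7.26%, and the whole genome 6.45% of union regions. Of these 17 union regions, 12 lie in Mef2c, 2 each in Rgs13 and Basp1 and 1 in Lmo2. A peak of all 4 libraries overlapped 10 of the 18 WT-higher regions. A peak of KO replicate 2 overlapped 14, of KO replicate 3 11, of WT replicate 2 17 and of WT replicate 3 16. Fold enrichments given beside a differential region are those of the peaks that overlap it, whose summits can lie outside it. An excess in WT put all 18 on that list, so the higher counts in WT than in KO restate that choice. KO replicate 3, with the lowest count, also had the least total peak coverage (110.6 Mb) and the narrowest peaks. Median peak widths were 431 and 347 bp in KO replicates 2 and 3, and 406 and 408 bp in WT replicates 2 and 3. The part of peak width in these counts was not tested. The tables carry no replicate values, and nothing in the sources used here states which libraries were compared or how the score is scaled.

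**Figure D2:**
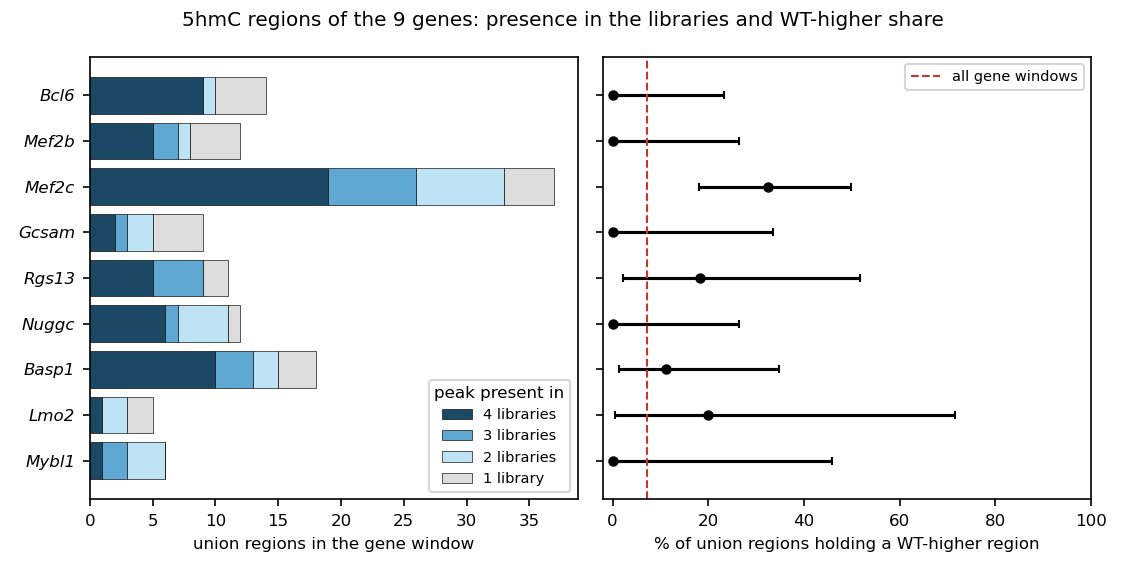
Left, number of union regions in each gene window by how many libraries had a peak there. Right, percent of those regions that hold a WT-higher region, with exact 95% binomial intervals. The dashed line is the 7.26% of all gene windows, and Mef2c, at 32.4%, is the gene whose interval lies above it. The intervals take neighbouring regions as independent and are no test against the line.

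Bcl6 (chromosome 16, 23965050 to 23988866, GRCm38, minus strand) had near-equal coverage in the genotypes after scaling to equal totals. Its window held 5853 and 6113 scaled bases in KO replicates 2 and 3, and 6256 and 5707 in WT replicates 2 and 3. The KO values lie between the WT values. The means were 5983 ± 184 in KO and 5982 ± 388 in WT (SD, n = 2 each), and the limma log2 change was 0.00 with a 95% interval of -0.26 to 0.26. All 4 libraries had a peak in 9 of its 14 union regions.

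The strongest Bcl6 peak was the same in every list, in a region 12.8 kb downstream of the first base of the longest transcript (23975679 to 23976463). Its summit fold enrichment, a ratio the authors gave for each peak, reached 11 and 8.68 in KO and 13.56 and 13.73 in WT. These values ranked above 95.9% and 97.3% of all peaks in the KO lists, and above 98.0% and 99.6% in the WT lists. Fold enrichments are not on a common scale: the list medians were 5.10 and 4.38 in KO and 5.51 and 4.89 in WT. The second strongest region (23971717 to 23972515) had fold enrichments of 8.76 and 7.16 in KO and of 9.02 and 6.98 in WT.

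None of the 14 regions held a WT-higher region of the authors' deposited table. A count of 0 in 14 regions allows a share of up to 21.4%, so the Bcl6 window is too small to be set apart from the 7.26% of all gene windows. The nearest WT-higher regions lay outside the window, 2 of them within 10 kb of the span. One Bcl6 region was seen in WT only, in both replicates. It lies 0.6 kb inside the gene (23988065 to 23988479) and partly in the lncRNA gene Gm31527, with fold enrichments of 3.71 in WT replicate 2 and 5.12 in WT replicate 3. Neither deposited table lists it. Conversely, 2 regions just upstream of the gene, at -1.2 and -2.2 kb, had a peak in KO replicate 2 alone, and 2 regions inside the gene had one in KO replicate 3 alone.

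RefSeq (GRCm38.p6) gives promoter windows of 300 bases, 250 before and 50 from the first base of a transcript onward, for 6 of the 9 genes. They are shown where peaks reach, or stop short of, a start site, with every CpG, the dinucleotide in which most 5hmC lies, in capitals. Bcl6 has a CpG-rich first promoter with 31 CpGs (chr16:23988803-23989102, minus strand), where no library had a peak and the nearest peak lay 324 bp away. Its second promoter (chr16:23981234-23981533, minus strand) has 14 CpGs. Over all 32851 promoter windows the median was 7 CpGs.

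Bcl6 first promoter: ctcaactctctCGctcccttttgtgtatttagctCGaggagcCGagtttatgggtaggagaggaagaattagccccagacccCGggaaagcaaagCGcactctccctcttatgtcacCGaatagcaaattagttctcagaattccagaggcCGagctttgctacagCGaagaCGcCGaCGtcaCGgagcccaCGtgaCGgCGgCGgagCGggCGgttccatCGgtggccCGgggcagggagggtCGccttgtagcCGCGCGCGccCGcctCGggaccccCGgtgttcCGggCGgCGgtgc
Bcl6 second promoter: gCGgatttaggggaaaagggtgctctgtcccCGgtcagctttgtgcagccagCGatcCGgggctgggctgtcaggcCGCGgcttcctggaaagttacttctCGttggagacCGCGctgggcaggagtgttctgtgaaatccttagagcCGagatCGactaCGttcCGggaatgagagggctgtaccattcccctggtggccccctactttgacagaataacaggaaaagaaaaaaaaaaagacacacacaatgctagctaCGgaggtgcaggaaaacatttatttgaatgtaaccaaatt

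The second promoter was entered by a peak from its downstream side, which covered bases 113 to 300 of the sequence above and 6 of its CpGs. The overlap was 119 and 188 bases in KO replicates 2 and 3 and 88 in WT replicate 2. In WT replicate 3 it was 0, although that library had a peak elsewhere in the same union region. This window also holds the only match among the 9 windows of these 6 genes to TTCCTNGAA, the core of the BCL6 binding motif, searched on both strands (TTCNAGGAA on the other) as the only motif. The match spans bases 83 to 91, outside the peak, and 1.59% of all promoter windows hold one. It is a letter match and no evidence of binding.

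Beyond the window, the 300 kb on either side of the Bcl6 span held 12 WT-higher and 0 KO-higher regions of the authors' deposited tables, 8 upstream and 4 downstream. These lay in 8 of 93 upstream union regions (8.6%) and 4 of 47 downstream ones (8.51%). Both shares are near the 6.45% of union regions over the whole genome. A locus control region for Bcl6 is known in mouse germinal center B cells in the gene-poor stretch upstream of the gene. Its coordinates are not in the sources used here, so its overlap with the WT-higher regions was not examined. Of the 8 upstream regions, 6 lay between -250.6 and -200.5 kb, inside the span of the lncRNA gene Gm31814 (24186057 to 24263186). They fell in 6 of the 30 union regions of that span (20%), and the remaining 2 in 2 of the other 63 upstream union regions. Over the Gm31814 span, KO libraries had 11892 and 11645 scaled bases and WT libraries 13169 and 10858. The KO values thus lie between the WT values. The cluster was chosen for description with its values known.

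Within the cluster, the top score of the authors' deposited table was 9.76, above 99.4% of that list, at 24199683 to 24200145. Peaks covered 43 and 54 of its bases in KO, and 463 and 339 in WT. The fold enrichments of these peaks were 3.98 and 2.22 in KO and 4.56 and 2.87 in WT, but only the WT replicate 3 summit lay inside the region. A region of 657 bp at 24203645 to 24204301, with a score of 6.28 in the authors' deposited table, had a peak in KO replicate 2 (4.15) and both WT libraries (5.69 and 5.36), and none inside it in KO replicate 3. The nearest WT-higher region upstream of the gene, at -5.2 kb (23993850 to 23994168, score 3.91 in the authors' deposited table), was part of the strongest 5hmC region of the upstream side, where fold enrichments were 12.67 and 9.77 in KO and 13.77 and 11.05 in WT. The nearest downstream one lay at 30.3 kb (23958403 to 23958713, score 6.19 in the authors' deposited table), beyond the end of the gene.

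**Figure D3:**
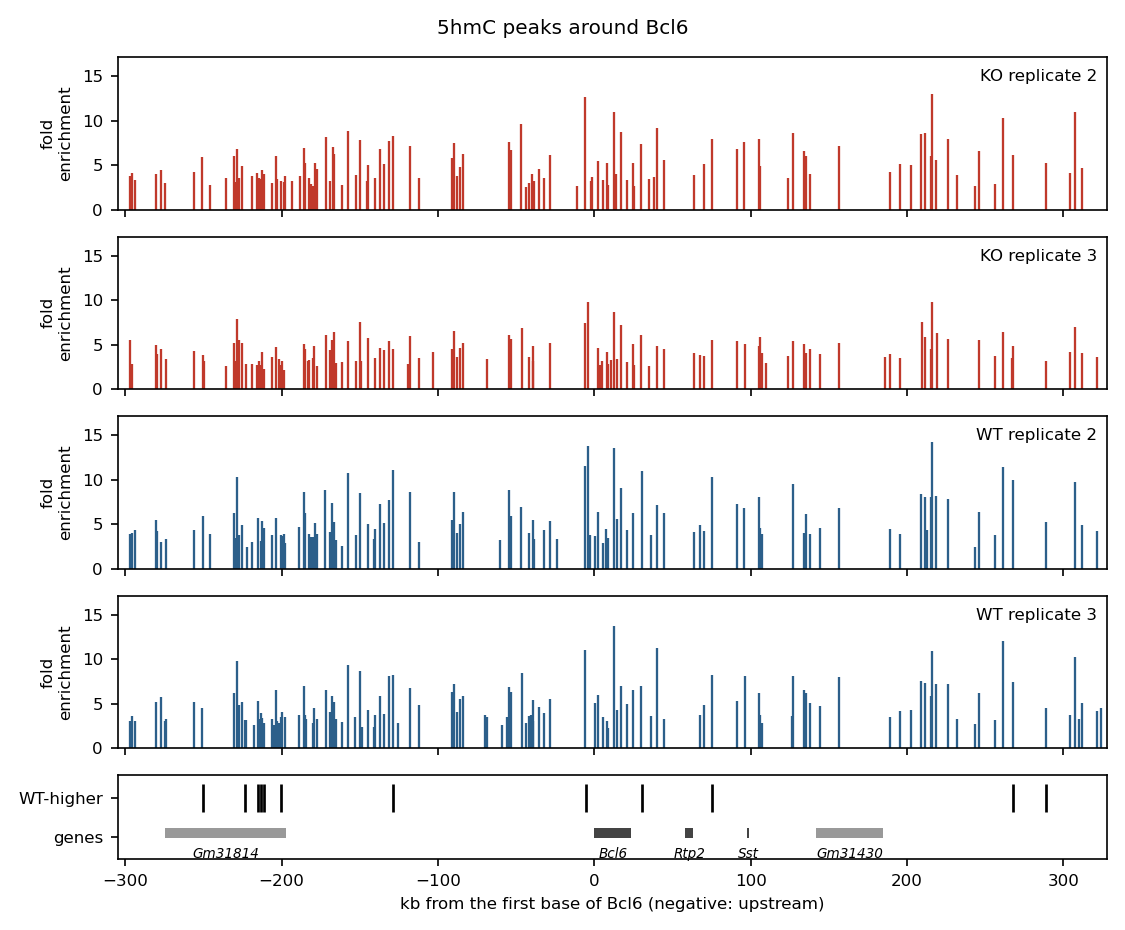
Summit fold enrichment (vertical axes) of every peak by distance from the first base of Bcl6 in kb (horizontal axis, negative values upstream), with KO libraries in the upper panels; the lowest panel marks WT-higher regions and selected gene spans (dark, protein-coding; light, lncRNA). WT-higher regions flank Bcl6, with 6 of 12 in the Gm31814 span, and 0 lie in its window.

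Upstream, KO libraries had 37522 and 34802 scaled bases and WT libraries 37719 and 36133, which overlap (difference of means -764 bases, exact two-sided permutation p = 0.667). Downstream, KO libraries had 16678 and 17940 scaled bases and WT libraries 16330 and 16455. Both KO values lie above both WT values there, by 917 bases in the mean (5.59%, exact two-sided permutation p = 0.333, the smallest that 2 libraries against 2 allow). Without scaling that difference turned to -240 bases.

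In a limma fit over 100564 bins of 10 kb across the genome, 0 bins passed (0%), and 5274 (5.24%) had an unadjusted p under 0.05. In the Bcl6 neighbourhood 0 of 38 bins passed and 3 had an unadjusted p under 0.05. Both KO libraries lay above both WT libraries in 9 of these bins and below in 6, against 16.3% and 11.1% of all bins tested. The 3 lowest unadjusted p belonged to a bin at 123.9 kb (log2 change 0.47, standard error 0.13, adjusted p = 0.698), one at -56.1 kb (-0.50, standard error 0.15, adjusted p = 0.735) and one at -156.1 kb (0.30, standard error 0.10, adjusted p = 0.873). None of these 3 bins held a WT-higher region.

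**Figure D4:**
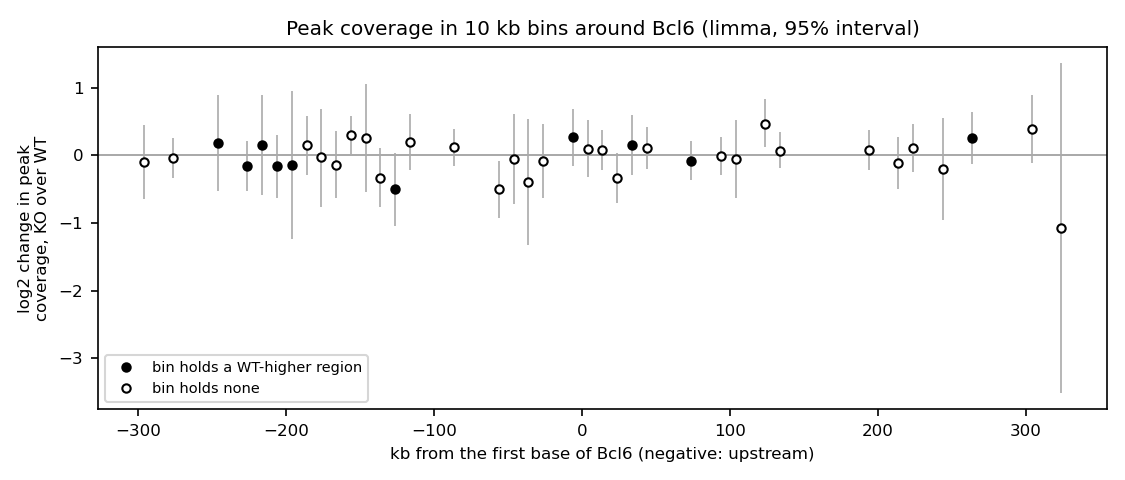
Limma log2 change of peak coverage, KO over WT, with its 95% interval (vertical axis) in 38 bins of 10 kb by distance from the first base of Bcl6 (horizontal axis, kb); filled points are bins with a WT-higher region. Filled points lie on both sides of 0, between -0.50 and 0.27.

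Mef2c (chromosome 13, 83504017 to 83667079, plus strand), which supports B cell survival and proliferation after antigen receptor signals, was the member with most WT-higher regions. The 12 regions in the authors' deposited table lay in 12 of its 37 union regions (32.4%, exact 95% interval 18 to 49.8%), against 7.26% over all gene windows. The interval takes neighbouring regions as independent. As many or more were found in 109 of 18310 genes (0.595%). Their scores in the authors' deposited table ran from 3.28 to 10.36. Mef2c was 163063 bp long, the longest span of the 9, and had the most union regions.

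Summed over the Mef2c window, KO libraries had 14849 and 13661 scaled bases and WT libraries 18259 and 11946. The WT libraries lie at both extremes, so the spread between WT libraries exceeds the difference of means (14255 ± 840 in KO and 15103 ± 4464 in WT, SD, n = 2 each; log2 change -0.05, 95% interval -0.56 to 0.46). Leaving out WT replicate 2 turned the log2 change to 0.25 (adjusted p = 0.986).

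The top-scoring Mef2c region, at 10.36 in the authors' deposited table and above 99.6% of that list, lay 106.1 kb into the gene (83609923 to 83610441), where the lncRNA gene Gm52043 overlaps Mef2c. It had peaks in WT replicates 2 and 3 only, with fold enrichments of 4.76 and 2.84. A pair of further regions, 124.2 and 126.4 kb into the gene, showed the same pattern, with fold enrichments of 3.31 and 3.23 in WT at the first and 2.61 and 3.23 in WT at the second, and neither was in the deposited tables. The region of next highest score, 8.11 in the authors' deposited table (83569015 to 83569395), overlapped a peak in every library, with fold enrichments of 3.03 and 2.7 in KO and 4.22 and 4.34 in WT.

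That second region belongs to a stretch of 12.4 kb (83563585 to 83576027) with 5 of the 12 WT-higher regions of the authors' deposited table. The stretch has 6 union regions, 5 of them with a peak in all 4 libraries. KO libraries had 3350 and 3109 scaled bases there and WT libraries 3578 and 2571, so the KO values lie between the WT values. Of the 10 Mef2c bins tested, 1 had less coverage in both KO libraries than in either WT library (11.1% of all bins tested). The same pattern was seen in 1 of 2 Mef2b bins, 1 of 2 Gcsam bins and 3 of 6 Basp1 bins. It was seen in 0 of 4 Rgs13, 0 of 3 Nuggc and 0 of 1 Lmo2 bins. In Mef2c it was the bin at 111.0 kb (83610001 to 83620000), with a limma log2 change of -0.46 (standard error 0.14, unadjusted p = 0.0269, adjusted p = 0.724). This bin had 965 and 1081 scaled bases in KO and 1626 and 1342 in WT. It held 2 of the WT-higher regions, and the groups overlapped in the other 9 Mef2c bins tested. The stretch and the bin were picked with their values known.

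The highest fold enrichment of each library in Mef2c stood at 1 of 2 places, both with a WT-higher region. One lay at -1.8 kb (83501973 to 83502580), with fold enrichments of 12.19 and 8.34 in KO and 13.21 and 10.09 in WT, and overlaps the lncRNA gene Gm33317. Its WT-higher region scored 3.28 in the authors' deposited table, with 0.5% of that list lower. The other lay at 80.8 kb (83584526 to 83585212), with 12.31 and 5.46 in KO and 12.55 and 9.22 in WT. Of the 3 Mef2c promoter windows, only the second (chr13:83523406-83523705, plus strand, 10 CpGs) was touched by a peak, which covered its first 80 bases and 1 CpG. The overlap was 68 and 0 bases in KO replicates 2 and 3, and 66 and 80 in WT replicates 2 and 3.

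Mef2c second promoter: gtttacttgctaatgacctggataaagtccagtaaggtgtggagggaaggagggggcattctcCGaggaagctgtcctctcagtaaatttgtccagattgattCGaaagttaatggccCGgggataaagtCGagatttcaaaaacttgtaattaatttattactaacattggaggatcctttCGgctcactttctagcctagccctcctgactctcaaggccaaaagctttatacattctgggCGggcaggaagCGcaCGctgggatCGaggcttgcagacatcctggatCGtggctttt

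**Figure D5:**
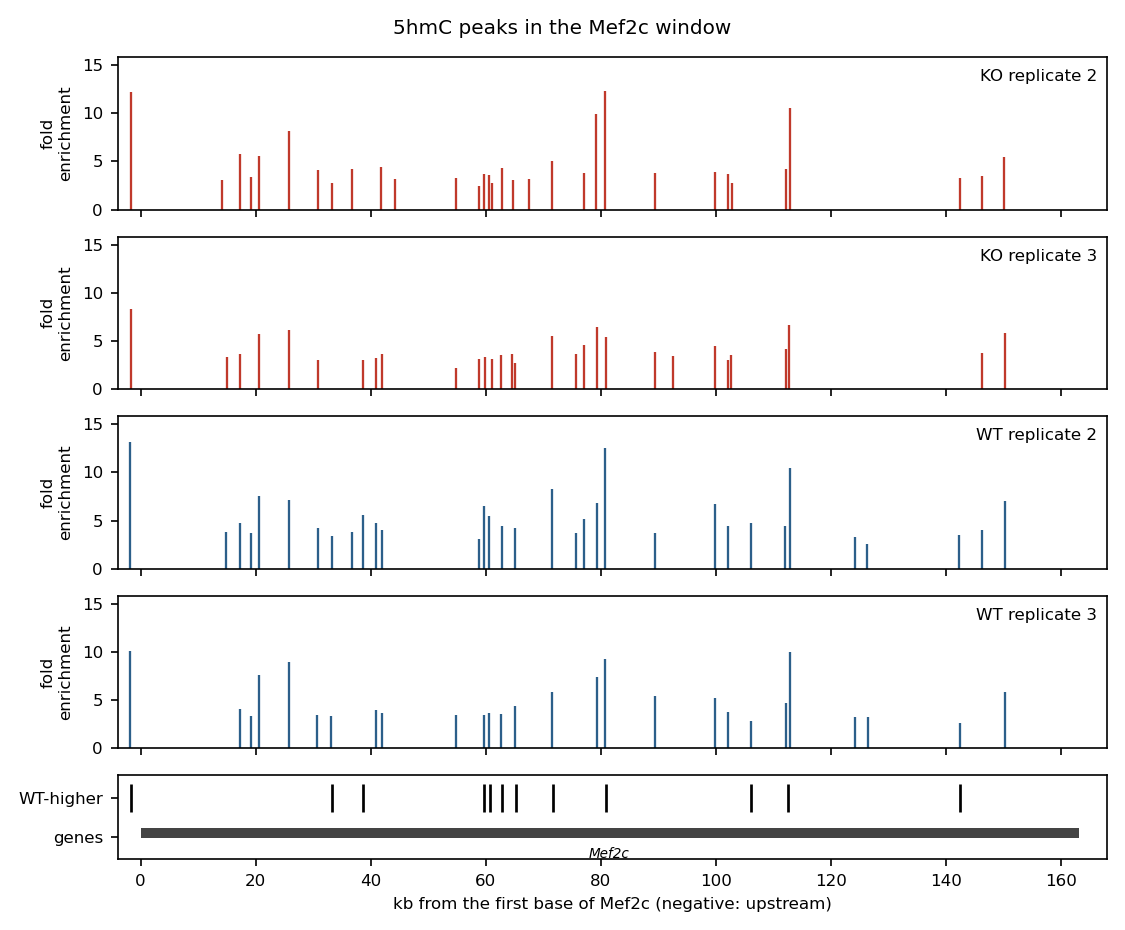
Summit fold enrichment (vertical axes) of every peak in the Mef2c window by distance from its first base in kb (horizontal axis), with KO libraries in the upper panels; the lowest panel marks the 12 WT-higher regions and the gene span. WT-higher regions spread from -1.7 to 142.5 kb, with 5 of 12 between 59.7 and 71.7 kb.

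Mef2b (chromosome 8, 70152761 to 70167488, plus strand) is the other MADS-box gene of the set and a recurrent target of mutation in human germinal center lymphoma. Its window held 4697 and 4243 scaled bases in KO and 5884 and 4248 in WT (log2 change -0.16, 95% interval -0.61 to 0.29). KO replicate 3 and WT replicate 3 had nearly the same coverage, and WT replicate 2 stood above the rest. The span lies inside that of Gm45929, another protein-coding gene model (70139499 to 70167488), and peaks here cannot be assigned to either gene alone.

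Of the 12 Mef2b regions, 5 had a peak in every library, and none held a WT-higher region (a count of 0 allows up to 25%). The strongest lay 12.3 kb into the gene, towards its end (70164684 to 70165446), with fold enrichments of 8.84 and 7.33 in KO and 9.21 and 8.51 in WT. At the start of the gene, a region at 70152699 to 70153080 had a peak in both KO libraries (4.30 and 4.38) and in WT replicate 2 (3.31), and none in WT replicate 3. It covered bases 189 to 300 of the promoter window (chr8:70152511-70152810, plus strand) and 5 of its 11 CpGs.

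Mef2b promoter: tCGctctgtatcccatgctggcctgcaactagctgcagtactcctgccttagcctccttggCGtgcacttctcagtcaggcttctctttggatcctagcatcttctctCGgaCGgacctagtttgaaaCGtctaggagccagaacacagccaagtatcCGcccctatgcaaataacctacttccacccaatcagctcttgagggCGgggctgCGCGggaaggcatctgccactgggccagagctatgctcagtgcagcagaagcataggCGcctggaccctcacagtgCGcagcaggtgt

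Lmo2 and Mybl1 had the fewest 5hmC regions of the set, 5 and 6. Lmo2 (chromosome 2, 103957903 to 103981878), a LIM domain adaptor that bridges transcription factors, had 482 and 1205 scaled bases in KO and 1369 and 1029 in WT. KO replicate 2 had 1 peak there and each other library had 3, so the log2 change of -0.50 (95% interval -1.47 to 0.46) rested on that library and was 0.02 without it. The 1 region with a peak in every library (103977131 to 103977661; fold enrichments 7.01 and 4.97 in KO, 6.83 and 4.10 in WT) held the WT-higher region of Lmo2, with a score of 3.69 in the authors' deposited table. Gm38515, a lncRNA gene, overlaps it.

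Mybl1 (chromosome 1, 9667407 to 9700439), which encodes A-MYB, a factor of proliferating germinal center B cells, had 2061 and 1317 scaled bases in KO and 1104 and 971 in WT. Both KO libraries lie above both WT libraries. The log2 change was 0.58 (standard error 0.24, 95% interval -0.02 to 1.19, unadjusted p = 0.0569, adjusted p = 1). It was 0.30 without KO replicate 2 and 0.87 without KO replicate 3. Its peak numbers were 6 and 4 in KO and 3 and 3 in WT, all with weak summits: the highest fold enrichments were 4.06 and 3.53 in KO and 3.62 and 3.78 in WT, each below the median of its list. Just outside one end of the gene, a region at 9666860 to 9667225 had peaks in both KO libraries (3.59 and 3.53) and in neither WT library.

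Rgs13 (chromosome 1, 144137386 to 144177372, minus strand), a regulator that shortens G protein signalling from chemokine receptors, had 2 WT-higher regions in the authors' deposited table, 1 on each side of its start. One (144176989 to 144177286, score 3.82 in the authors' deposited table) ran from 86 to 383 bases downstream of the first base. The other (144178741 to 144179074, score 5.26 in the authors' deposited table) lay at -1.5 kb. At both, KO replicate 3 had no peak, while the other 3 libraries had one: fold enrichments were 3.82 in KO replicate 2 and 5.38 and 3.55 in WT at the first, and 3.35 in KO replicate 2 and 3.93 and 3.07 in WT at the second. The KO libraries thus differed from each other at both places.

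The peak at the Rgs13 start covered bases 200 to 300 of the promoter window (chr1:144177323-144177622, minus strand), with 86 and 0 bases in KO replicates 2 and 3 and 101 and 65 in WT replicates 2 and 3. This window holds 0 CpGs.

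Rgs13 promoter: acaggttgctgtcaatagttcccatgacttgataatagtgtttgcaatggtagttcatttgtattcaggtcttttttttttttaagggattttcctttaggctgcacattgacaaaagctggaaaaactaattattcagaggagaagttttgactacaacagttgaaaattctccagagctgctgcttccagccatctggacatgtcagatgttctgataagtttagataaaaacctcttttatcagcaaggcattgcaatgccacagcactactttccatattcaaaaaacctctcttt

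Over the whole Rgs13 window, coverage was 3587 and 2917 scaled bases in KO and 3769 and 3460 in WT, and the groups overlap (log2 change -0.15, 95% interval -0.52 to 0.22). The change was -0.29 without KO replicate 2 and -0.01 without KO replicate 3. The strongest Rgs13 regions lay 12.4 kb into the gene (144164674 to 144165202; fold enrichments 8.61 and 8.11 in KO, 12.63 and 10.72 in WT) and just past the end of the gene (144136806 to 144137347; 9.57 and 7.61 in KO, 9.98 and 10.41 in WT). Neither held a WT-higher region.

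Gcsam (chromosome 16, 45610440 to 45622867, plus strand), an adaptor of germinal center B cells that acts in antigen receptor signalling and cell motility, had weak and scattered peaks. Only 2 of its 9 regions had a peak in every library, both past the end of the gene, and 4 had a peak in 1 library. Coverage was 1645 and 1596 scaled bases in KO and 2253 and 1538 in WT, and the KO values lie between the WT values (log2 change -0.18, 95% interval -0.71 to 0.34). Its highest fold enrichments, 4.78 and 4.30 in KO and 4.66 and 4.32 in WT, were each below the median of their list. No peak reached its promoter window, and the nearest ended 89 bp away.

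Nuggc (chromosome 14, 65593499 to 65648444), a nuclear GTPase gene of germinal center B cells, was the member with the lowest unadjusted p. It had 4591 and 4764 scaled bases in KO and 3758 and 3857 in WT. The gap between the groups exceeds the spread within each (means 4677 ± 122 in KO and 3808 ± 70 in WT, SD, n = 2 each). The log2 change was 0.28 (standard error 0.11, 95% interval 0.02 to 0.55, unadjusted p = 0.0416), but the adjusted p over all genes was 1. A region at 65597896 to 65598433 had peaks in both KO libraries (4.22 and 3.25) and in neither WT library, and neither deposited table listed a region in the window. The window reaches into Elp3, whose span ends at 65593112.

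Basp1 (chromosome 15, 25363277 to 25413764, minus strand), a membrane-associated protein gene also known from neurons, had 3 WT-higher regions in the authors' deposited table. Its coverage was 7860 and 6278 scaled bases in KO and 9403 and 7543 in WT, with overlapping groups (log2 change -0.26, 95% interval -0.66 to 0.15). That value was -0.10 without KO replicate 3 or WT replicate 2, and -0.41 without KO replicate 2 or WT replicate 3. The WT-higher region of highest score (25365390 to 25365657, 6.65 in the authors' deposited table), 48.2 kb into the gene, was seen in WT only, with peaks of 3.83 and 3.63 in replicates 2 and 3. One at -1.5 kb (25415172 to 25415403, score 4.77 in the authors' deposited table) overlapped a peak in every library, with fold enrichments of 6.32 and 6.24 in KO and 9.01 and 7.48 in WT. The last (25379890 to 25380125, score 4.91 in the authors' deposited table) overlapped no peak. With windows of 10 kb on each side Basp1 had 6 WT-higher regions. The Basp1 promoter window is the richest in CpG among those of the 6 genes, with 38, and a peak touched it in WT replicate 3 alone.

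Across the 9 promoter windows of the 6 genes with an entry, 5 were touched by a peak of at least 1 library and 0 by a peak of all 4. Over all promoter windows these shares were 9.41% and 4.37%. No WT-higher region overlapped any of the 9, as for all but 0.46% of all promoter windows.

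Genes linked to BCL6 by function gave the wider setting, and 0 genes of these lists passed limma in either direction. The lists were chosen with earlier results of these data known, so their shares are description and no independent support. At an unadjusted p under 0.05 there were 1 of 18 corepressor and partner genes tested, 4 of 19 repressed genes and 1 of 28 other germinal center genes. The share was 4.22% over all genes. Among 20 genes listed as BCL6 corepressors or partner factors, 10 had WT-higher regions in the authors' deposited table, 43 in all. Hdac9 led with 13, followed by Tbl1xr1 with 7. These are to be read against 28.3% of all genes with a WT-higher region. They fell in 9.57% of the list's union regions, against 7.26% in all gene windows. Coverage values were lower in KO for 13 of the 18 genes tested, where 52.3% of all genes had a lower value (median log2 change -0.06, beside -0.01 over all genes), and the smallest unadjusted p belonged to Mta3 (-0.32, standard error 0.11), Tbl1xr1 (-0.25, standard error 0.10) and Zbtb7a (-0.60, standard error 0.25), each with an adjusted p of 1.

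Among 23 genes known as repressed by BCL6, 14 had WT-higher regions in the authors' deposited table, 41 in all, in 17.6% of their union regions (28.3% of all genes, and 7.26% of union regions in all gene windows). Bcl2, the antiapoptotic gene, had 8, the chemokine receptor gene Ccr6 6 and the adhesion receptor gene Cd44 5. Of the 19 tested, 10 had lower values in KO, beside 52.3% of all genes (median log2 change -0.05). The smallest unadjusted p belonged to genes on both sides. Stat3, a cytokine-activated factor, had 2274 and 2038 scaled bases in KO and 3501 and 3205 in WT (log2 change -0.59, standard error 0.13, adjusted p = 1). Ccnd2, a D-type cyclin, had 1090 and 1847 in KO and 492 and 629 in WT (1.1, standard error 0.28, adjusted p = 1). Prdm1, the plasma cell regulator, had 2830 and 2992 in KO and 1601 and 2137 in WT (0.60, standard error 0.17, adjusted p = 1).

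Among 30 other germinal center B cell genes, 22 had WT-higher regions in the authors' deposited table, 204 in all, in 23% of their union regions. Over all genes, 28.3% had one and 7.26% of union regions in gene windows held one. The 9 genes of the set had WT-higher regions in 13.7% of their union regions, with 12 of these 17 in Mef2c. Bach2 had 33, Ebf1 26 and Rftn1 25. Coverage values were lower in KO for 20 of the 28 tested, beside 52.3% of all genes (median log2 change -0.11), and Gna13, a G protein gene that confines germinal center B cells, had the smallest unadjusted p (5964 and 6531 scaled bases in KO, 10767 and 7701 in WT; -0.53, standard error 0.17, adjusted p = 1). It was followed by Ebf1 (-0.22, standard error 0.10) and Elf1 (-0.32, standard error 0.16). B cell markers held WT-higher regions in 20.3% of their union regions, myeloid markers in 10.7% and T cell markers in 5.88%. Pax5 alone gave 15 of the 25 such regions of the B cell list and 68 of its 123 union regions. Some B cell markers, Pax5 among them, are also in the list of other germinal center B cell genes. Summed over each marker list, KO libraries had 66001 and 53995 scaled bases and WT libraries 71947 and 57987 for B cells. KO libraries had 29666 and 28432 and WT libraries 30495 and 29834 for myeloid cells. For T cells the sums were 22738 and 22787 for KO and 22769 and 23775 for WT. Their part in the results above was not tested.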

How the data were processed

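The series has 8 libraries: 4 immunoprecipitated libraries, used here, and 4 inputs, not analysed here. The build GRCm38.p3 and the tools MACS2 2.1.0.20151222 and BWA 0.7.12-r1039 were used, per the submitters' processing notes; settings and roles are not given in the sources used here. The authors deposited 1 peak list per library, not pooled, with a fold enrichment (a ratio), a −log10 p-value, a −log10 q-value and a score per peak. These are the authors' values and describe peaks within a list. The score of the deposited differential regions has no stated scale.

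Peaks were merged. Covered bases per window, scaled so that libraries have the same sum, entered limma 3.58.1 (R 4.3.3, trend and robust options) after a log2 transform with 200 added, for 13998 genes whose mean reached 500 bases and for 100564 bins of 10 kb, with Benjamini-Hochberg adjustment at 0.05. This scale understates changes of thinly covered genes, and the measure reads covered length, not peak height. A region or window was counted at an overlap of at least 1 bp. Exact binomial intervals (95%) and the limit behind a count of 0 (3 counts) cover counting error only. Gene spans and promoters came from RefSeq (GRCm38.p6). The members and lists were chosen with earlier results of these data known; all 9 members are named, and from each list of BCL6-linked genes the 3 with most WT-higher regions and the 3 with the smallest limma p; 1 gene is not reported here. Alternatives were another pseudocount, no minimum, no scaling, peaks of at least 5-fold enrichment, equal peak numbers, other windows, a replicate block and leaving out each library.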

Additional observations from a re-analysis of the deposited data

How the results depend on the processing

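For gene coverage, 0 genes passed under every alternative run. For 10 kb bins, 0 passed under every alternative but 1. With peaks of at least 5-fold enrichment 84 of 57569 bins passed, 0 of them in the Bcl6 neighbourhood or another member window. Of the 84, 72 were lower and 12 higher in KO, and the smallest adjusted p in limma was 4.1e-35. The median log2 change over all bins of that run was 0.20, beside 0.02 in the main run. The cause was not tested. Same-numbered KO and WT libraries did not deviate together (correlation 0.09 over genes), and with the replicate block 0 genes and 0 bins passed, with 924 genes at an unadjusted p under 0.05 in place of 591.

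At a score of at least 5, member windows kept 6 of 18 WT-higher regions and the Bcl6 flanks 7 of 12; flanks of 100 kb held 3. With peaks of at least 5-fold enrichment, 19 union regions in place of 58 had a peak in all 4 libraries.

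Over all members and alternatives, the log2 change kept its sign in 101 of 113 values, and no adjusted p was below 0.58. With 1 library left out it ranged from -0.38 to 0.07 for Mef2b, from -0.35 to 0.25 for Mef2c, from -0.43 to 0.07 for Gcsam and from -1.03 to 0.02 for Lmo2. It turned for Bcl6, whose main value was 0.00, without scaling (-0.09), at 5-fold enrichment (-0.20), with equal peak numbers (-0.03), without KO replicate 3 (-0.03) and without WT replicate 3 (-0.06). At 5-fold enrichment it turned for Rgs13 (0.49) and Basp1 (0.23). Those upper ends came without WT replicate 2 (without KO replicate 2 for Lmo2), and Mef2c also turned without KO replicate 3 (0.01). The cause of the turns was not tested.

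The difference in Bcl6 flank coverage, KO minus WT, was 153 bases for both sides together; it was -3176 without scaling and ranged from -578 to 883 with 1 library left out. Upstream (-764) it was 449 at 5-fold enrichment and ranged from -2124 to 596 with 1 library left out. Downstream (917) it was -240 without scaling and ranged from 286 to 1548 with 1 library left out. The number of libraries, 2 per genotype, and the unknown read depth limit all of these.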
